A study of Saccharomyces cerevisiae with 12 samples.

Results

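The genes of amino acid synthesis outside the sulfur branch were examined as a group of 50 genes in 9 pathways, taken from textbook pathway membership. The group was chosen with earlier results of these data known. A gene was represented by the intergenic region that lies upstream of it, which was found for 48 of the 50 genes. These were 48 distinct regions among 4532 in all, of which 3366 lie upstream of at least 1 gene. The regions of ARO3 and SER3 were not analysed here. The 48 comprised 6 histidine, 10 branched chain (leucine, isoleucine, valine), 6 lysine, 5 arginine, 9 aromatic, 2 serine, 5 threonine and homoserine, 3 glutamine and asparagine and 2 proline genes.

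Binding had been mapped with calling cards, an assay in which a factor fused to Sir4 directs the retrotransposon Ty5 into nearby chromatin, so that insertions gather around the positions the fusion occupies. There were 12 libraries of Saccharomyces cerevisiae, 1 for each group, each grown from a single clone with the fusion on a plasmid, for 3 days on galactose, then 2 days on rich medium and 3 days of selection without histidine. All 12 strains lacked SIR4 (sir4D). CBF1 was also deleted (cbf1D) in the strains of Cbf1, of Cbf1 bHLH-ZIP, of Cbf1 bHLH, of Cbf1 bHLH-ZIP with the basic region of Tye7, and of both NPAS2 libraries, TYE7 (tye7D) in that of Tye7, and GCR2 (gcr2D) in that of TEF1p-Tye7 gcr2D. Gcr1, Gcr2, Cst6 and TEF1p-Tye7, in which the TEF1 promoter drives Tye7, had sir4D alone. The library with the Tye7 basic region was made in BY4742 and the others in BY4741, laboratory strains that both need histidine and leucine from the medium. With 1 library per group, no difference has a replicate check, and every test compares libraries and not conditions.

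Yeast makes all of its amino acids from intermediates of central metabolism, and most of these pathways are induced together by the activator Gcn4 when any amino acid runs short, beside regulators of single pathways such as Leu3 or Lys14. Cbf1 is a basic helix-loop-helix factor with a leucine zipper (bHLH-ZIP) known for the sulfur amino acid genes, where it works with Met4 and Met28. Tye7, also a bHLH factor, and the activators Gcr1 and Gcr2 are known for glycolytic genes, Cst6 is a bZIP factor, and NPAS2 is a mammalian bHLH factor of the circadian clock. The sulfur branch begins from homoserine, which the threonine pathway supplies.

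The libraries held between 2415 (NPAS2 bHLH) and 37782 (Cst6) intergenic insertions, and each came with a background set of 66271, or for Gcr1, Gcr2 and Cst6 of 53808, intergenic insertions. The values below are the number of insertions in a region, its share of the library's intergenic insertions, and the ratio of that share to the share in the background, each ratio with an exact 95% interval that covers counting error only. A region is called bound when it holds at least 5 insertions and its Poisson p-value, computed the way the authors did and adjusted across the 4532 regions, is under 0.01. This p-value scales the background by all insertions, while the ratios use intergenic insertions only. In Cbf1 27141 of 34773 insertions were intergenic, against 66271 of 103922 in its background. A region can there be called at a smaller printed ratio than if both used intergenic insertions. A count of 0 allows a share of up to 0.00794% in Cst6, the deepest library, and up to 0.124% in NPAS2 bHLH, the shallowest.

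Of the 48 regions, 10 were bound in at least 1 library (20.8%) and 38 in none. Among all 4532 regions 10.0% were bound in at least 1 library, and among those upstream of a gene 12.4%. Cbf1 bound 7 of them (14.6%), where it bound 177 of all regions, 3.91%, and 5.14% of regions upstream of a gene. Cbf1 bHLH-ZIP bound 4 (2.05% of all regions), Cbf1 bHLH 2 (2.18%), Cst6 2 (3.57%), NPAS2 bHLH with Cbf1 ZIP 2 (1.04%) and the form with the Tye7 basic region 1 (1.68%). None was bound in Tye7, where 0.375% of all regions were bound, in Gcr1 (1.41%), Gcr2 (1.74%), NPAS2 bHLH (0.0221%), TEF1p-Tye7 (0.552%) or TEF1p-Tye7 gcr2D (0.971%). In these 6 libraries without a bound member, the shares of all regions bound were low as well, so 0 of 48 says little that is particular to amino acid genes. The member regions were longer than regions upstream of a gene in general, with a median of 626.5 bp against 510 bp, and held a median of 26.5 background insertions against 10. A region with more background insertions can be called at a smaller ratio, and the part of this in the share bound was not tested.

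**Figure D1:**
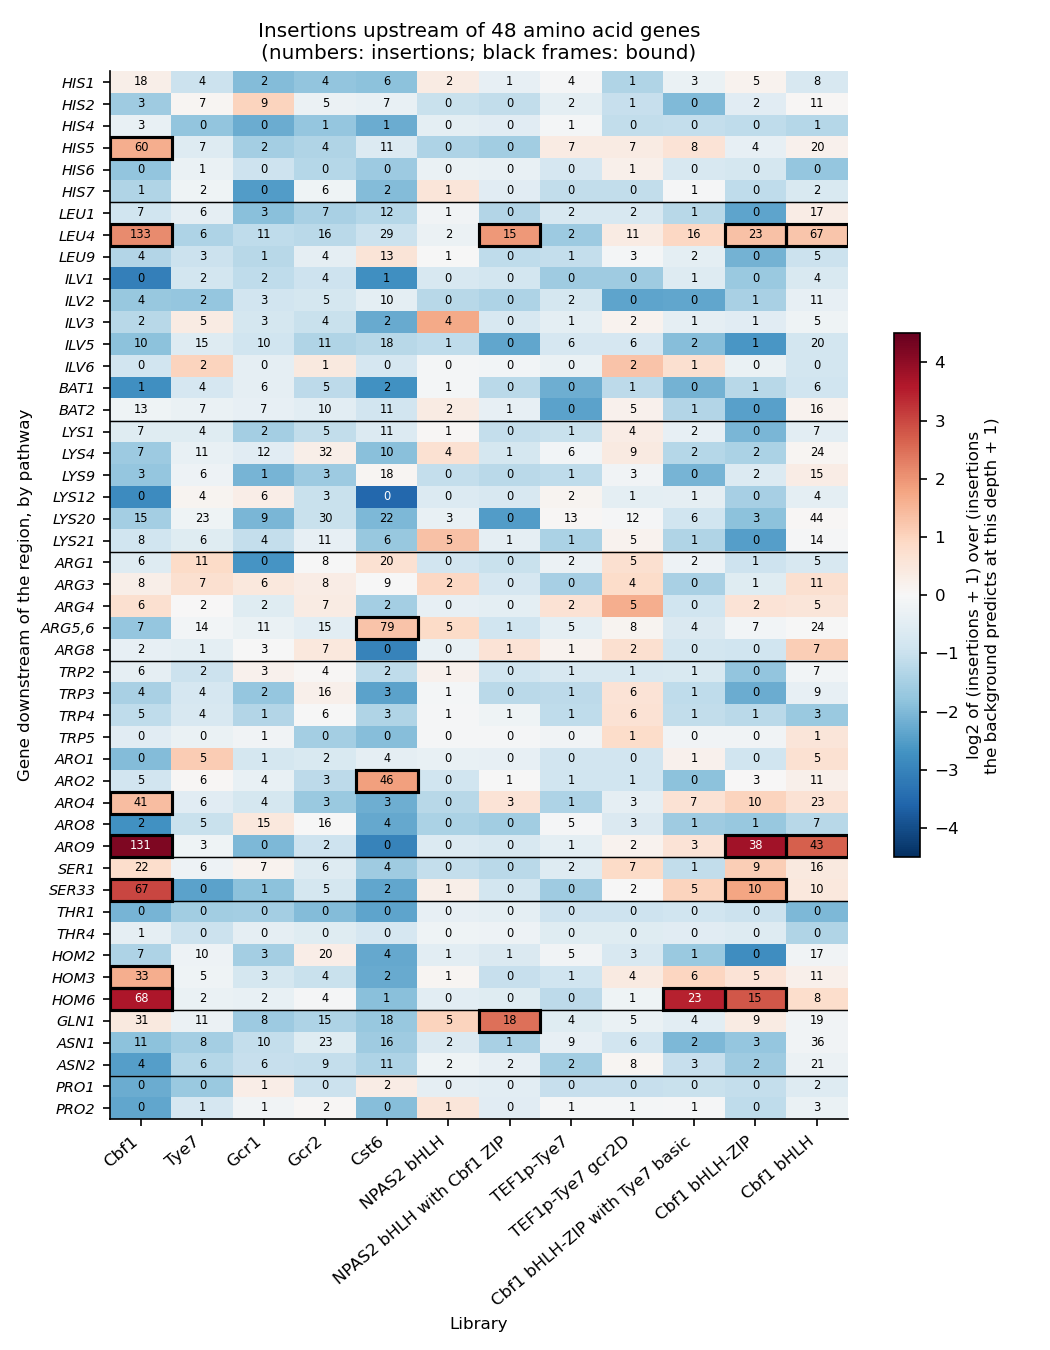
Insertions in the 48 upstream regions (rows, by pathway, with lines between pathways) in the 12 libraries (columns). Numbers are insertions, colour is the log2 ratio of insertions to those that the background predicts at the depth of the library, with 1 added to each, and black frames mark bound regions. Frames lie in 6 columns, and the column of Cbf1 holds 7 of them.

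The aromatic pathway held the fullest bound region relative to background. ARO9 encodes an aromatic aminotransferase that mostly serves the breakdown of aromatic amino acids, and its region SPL2-ARO9 (chromosome 8, 375103 to 375712 in the coordinates of the files, build not given in the sources used here) is shared with SPL2, a gene of phosphate metabolism that is transcribed the other way. It held 131 insertions of Cbf1, 38 of Cbf1 bHLH-ZIP, 43 of Cbf1 bHLH and 3 of the library with the Tye7 basic region. The other 8 libraries held few: 3 in Tye7, 2 in Gcr2, 2 in TEF1p-Tye7 gcr2D, 1 in TEF1p-Tye7 and 0 in Gcr1, Cst6 and both NPAS2 libraries. The region was bound in the 3 forms of Cbf1 that keep its own basic region and in none of the other 9 libraries.

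As shares, ARO9 took 0.483% of Cbf1 insertions, 21.3 times background (12.5 to 39.2; Poisson, adjusted p 4.64e-130), and 0.473% of Cbf1 bHLH-ZIP insertions, 20.9 times background (11.2 to 40.9; adjusted p 1.24e-36). Without the zipper, Cbf1 bHLH put 0.167% there, 7.40 times background (4.03 to 14.3; adjusted p 3.35e-23), which with positions within 5 bp merged was 2.03 and not bound. Merging chained neighbouring positions of the library and left the background unmerged, so ratios at densely hit regions fall by construction. Within the 610 bp, the middle 50% of the Cbf1 insertions lay between 282 and 486.5 bp from the ARO9 end, with a median of 332 bp, and 85 distinct positions were used. The median was 463.5 bp for Cbf1 bHLH-ZIP and 276 bp for Cbf1 bHLH, whose upper quartile of 299.5 bp lay near the lower quartiles of the other 2 forms (282 and 286 bp). All 4 blocks of the Cbf1 insertion list, called runs here and not named in the labels, held between 0.401% and 0.586% of their insertions in this region.

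ARO4, which encodes the DAHP synthase that tyrosine inhibits, and ARO2, which encodes chorismate synthase, were bound by different factors. ARO4-SPO23 (chromosome 2, 717989 to 719028, divergent) held 41 Cbf1 insertions, 0.151% and 2.71 times background (1.69 to 4.34; adjusted p 1.92e-09). It held 10 insertions of Cbf1 bHLH-ZIP, 7 of the form with the Tye7 basic region and 23 of Cbf1 bHLH, at 2.23, 1.73 and 1.60 times background, none of them bound, and 0 to 6 in each other library. ARO2 (INO80-ARO2, chromosome 7, 225578 to 226404) was bound by Cst6 alone among the 12 libraries, with 46 insertions, 0.122% and 3.85 times background (2.17 to 7.17; adjusted p 6.26e-14). The Cst6 runs differed here, with 0.0141% in the lowest and 0.173% in the highest, and without run 3 the ratio was 1.74 and the region was not bound. The region of ARO2 is divergent with INO80 and holds an annotated open reading frame between the genes. The remaining 6 aromatic genes with a region, TRP2 to TRP5, ARO1 and ARO8, were bound in none of the 12 libraries, ARO8 having at most 16 insertions (Gcr2).

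In the threonine and homoserine branch, HOM6 and HOM3 were bound, while HOM2, THR1 and THR4 were not. HOM6 encodes homoserine dehydrogenase, whose product is the last intermediate that threonine and methionine share. Its region HOM6-HIR3 (chromosome 10, 690515 to 690741) is 227 bp long and is a promoter of HOM6 only. It held 68 insertions of Cbf1, 15 of Cbf1 bHLH-ZIP, 23 of the form with the Tye7 basic region and 8 of Cbf1 bHLH. The other libraries had 2 in Tye7, 2 in Gcr1, 4 in Gcr2, 1 in Cst6, 1 in TEF1p-Tye7 gcr2D and 0 in TEF1p-Tye7 and both NPAS2 libraries. It was the only member bound in the library with the Tye7 basic region.

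HOM6 took 0.251% of Cbf1 insertions, 15.1 times background (7.93 to 31.7; adjusted p 5.54e-58), 0.187% of Cbf1 bHLH-ZIP, 11.3 times (4.83 to 27.1; adjusted p 8.42e-11), and 0.318% with the Tye7 basic region, 19.2 times (8.97 to 43.5; adjusted p 5.40e-21). In Cbf1 bHLH the ratio was 1.88 (0.655 to 5.12), which was not bound, and without run 1 of Cbf1 bHLH-ZIP its ratio of 7.29 was not bound either. The median insertion lay 157, 150 and 144 bp from the HOM6 end in the 3 bound libraries, and the 8 insertions of Cbf1 bHLH lay between 117 and 173 bp. The 2 runs with the Tye7 basic region held 0.120% and 0.489%, and without run 1 the ratio of 7.20 was not bound. The next bound region on the chromosome was MET5-IML1, 5957 bp away, with 827 Cbf1 insertions.

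HOM3 encodes aspartate kinase, the entry to the branch. HOM3-PIC2 (chromosome 5, 257957 to 258736) held 33 Cbf1 insertions, 0.122% and 3.36 times background (1.93 to 5.94; adjusted p 5.92e-10), and was bound in no other library. It held 6 insertions with the Tye7 basic region, 5 of Cbf1 bHLH-ZIP and 11 of Cbf1 bHLH, at 2.29, 1.72 and 1.18 times background. With insertions of at least 5 reads only, the Cbf1 ratio was 2.21 and the region was not bound. It lies 902 bp from PIC2-GIP2, which was bound with 51 Cbf1 insertions. HOM2, of aspartate semialdehyde dehydrogenase between these steps, held 7 Cbf1 insertions at a ratio of 0.349 (0.133 to 0.774).

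LEU4, in the branched chain group, encodes α-isopropylmalate synthase, the committing step of leucine synthesis. Its region LEU4-MET4 (chromosome 14, 426756 to 427737) is divergent with MET4, the activator of the sulfur genes, and insertions cannot be assigned to either gene. It was bound in 4 libraries, more than any other member. It held 133 insertions of Cbf1, 23 of Cbf1 bHLH-ZIP, 16 of the form with the Tye7 basic region, 67 of Cbf1 bHLH, 15 of NPAS2 bHLH with Cbf1 ZIP and 2 of NPAS2 bHLH. The remaining counts were 6 in Tye7, 11 in Gcr1, 16 in Gcr2, 29 in Cst6, 2 in TEF1p-Tye7 and 11 in TEF1p-Tye7 gcr2D.

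The share of LEU4-MET4 was 0.490% in Cbf1, 4.51 times background (3.36 to 6.10; adjusted p 7.45e-52). It was 0.286% in Cbf1 bHLH-ZIP, 2.64 times (1.57 to 4.27; adjusted p 6.39e-05), and 0.261% in Cbf1 bHLH, 2.40 times (1.70 to 3.40; adjusted p 4.19e-11). These calls were lost for Cbf1 bHLH-ZIP without run 2 (2.14) and for Cbf1 bHLH without run 3 (2.28) or with positions merged (1.27). Run 3 held 20443 of the 25688 intergenic insertions of Cbf1 bHLH. In NPAS2 bHLH with Cbf1 ZIP the share of LEU4-MET4 was 0.525%, 4.83 times (2.57 to 8.50; adjusted p 8.07e-05), and with insertions of at least 5 reads 5.24 times and not bound. With the Tye7 basic region the ratio of 2.04 (1.11 to 3.53) was short of the threshold (adjusted p 0.0320). In the full-length libraries of Tye7, Gcr1, Gcr2 and Cst6 the ratios ran from 0.345 to 0.504. The median insertion lay 590, 571 and 568 bp from the LEU4 end in Cbf1, Cbf1 bHLH-ZIP and Cbf1 bHLH, on the MET4 side of the middle of the 982 bp, and 399 bp from it in NPAS2 bHLH with Cbf1 ZIP. None of the other 9 branched chain regions was bound, ILV5 (acetohydroxyacid reductoisomerase) holding at most 20 insertions, in Cbf1 bHLH.

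SER33 and HIS5 were bound by Cbf1 as well. SER33 encodes a 3-phosphoglycerate dehydrogenase, which draws serine synthesis off glycolysis, and SER33-SPO22 (chromosome 9, 222487 to 222934) held 67 Cbf1 insertions, 0.247% and 9.09 times background (5.34 to 16.3; adjusted p 7.66e-44). Cbf1 bHLH-ZIP had 10 insertions, 4.59 times background (1.89 to 10.5; adjusted p 0.000455), which was bound, and the 10 of Cbf1 bHLH and 5 with the Tye7 basic region were not. Tye7 and TEF1p-Tye7 had 0, and the other libraries 0 to 5. Leaving out either run of Cbf1 bHLH-ZIP ended its call, with ratios of 3.90 and 5.57. The other serine gene, SER1, held 22 Cbf1 insertions at 1.79 times background (0.984 to 3.21) and was bound in no library, although it was bound by Cbf1 without run 2.

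HIS5 encodes histidinol-phosphate aminotransferase. PRM5-HIS5 (chromosome 9, 141566 to 142925, divergent) held 60 Cbf1 insertions, 0.221% and 3.26 times background (2.18 to 4.90; adjusted p 4.95e-17), with 0.165% to 0.316% in the 4 runs. It held 4 insertions of Cbf1 bHLH-ZIP, 8 of the form with the Tye7 basic region and 20 of Cbf1 bHLH, at 0.734, 1.63 and 1.15 times background, and was bound in none of these. It lies 1817 bp from RPI1-RHO3, bound with 120 Cbf1 insertions. The other 5 histidine regions were bound in no library, and HIS1 came closest in Cbf1 with 18 insertions at 1.22 times background (0.653 to 2.21).

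**Figure D2:**
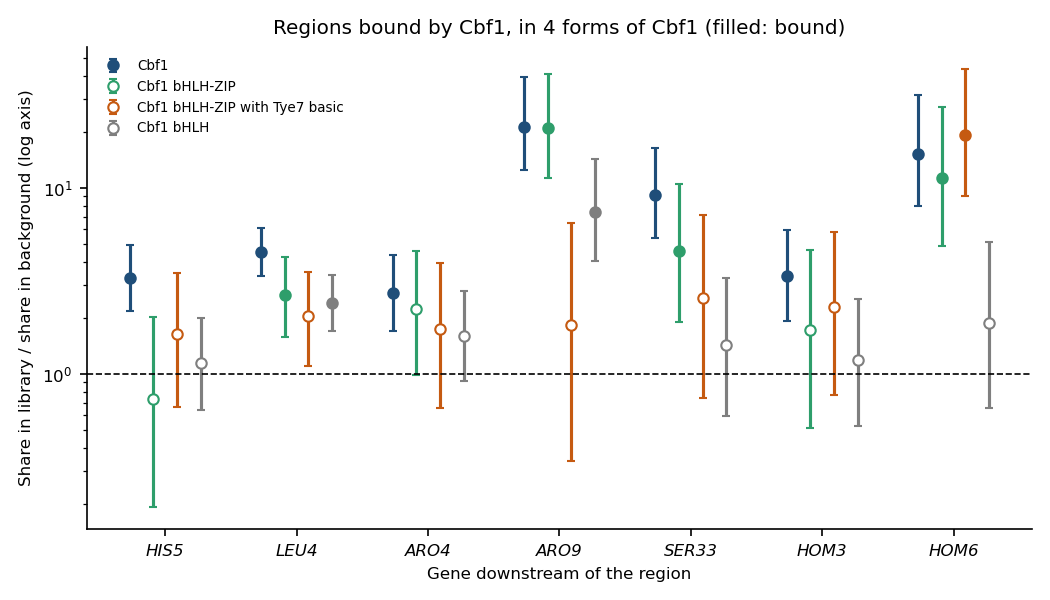
Share in the library over share in the background (log axis) for the 7 regions bound by Cbf1, in Cbf1 and in 3 altered forms of it. Points are single libraries, filled where the region was bound, bars are exact 95% intervals of the ratio, and the dashed line marks equality. ARO9 and HOM6 have the highest ratios, and only HOM6 is filled for the Tye7 basic region.

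**Figure D3:**
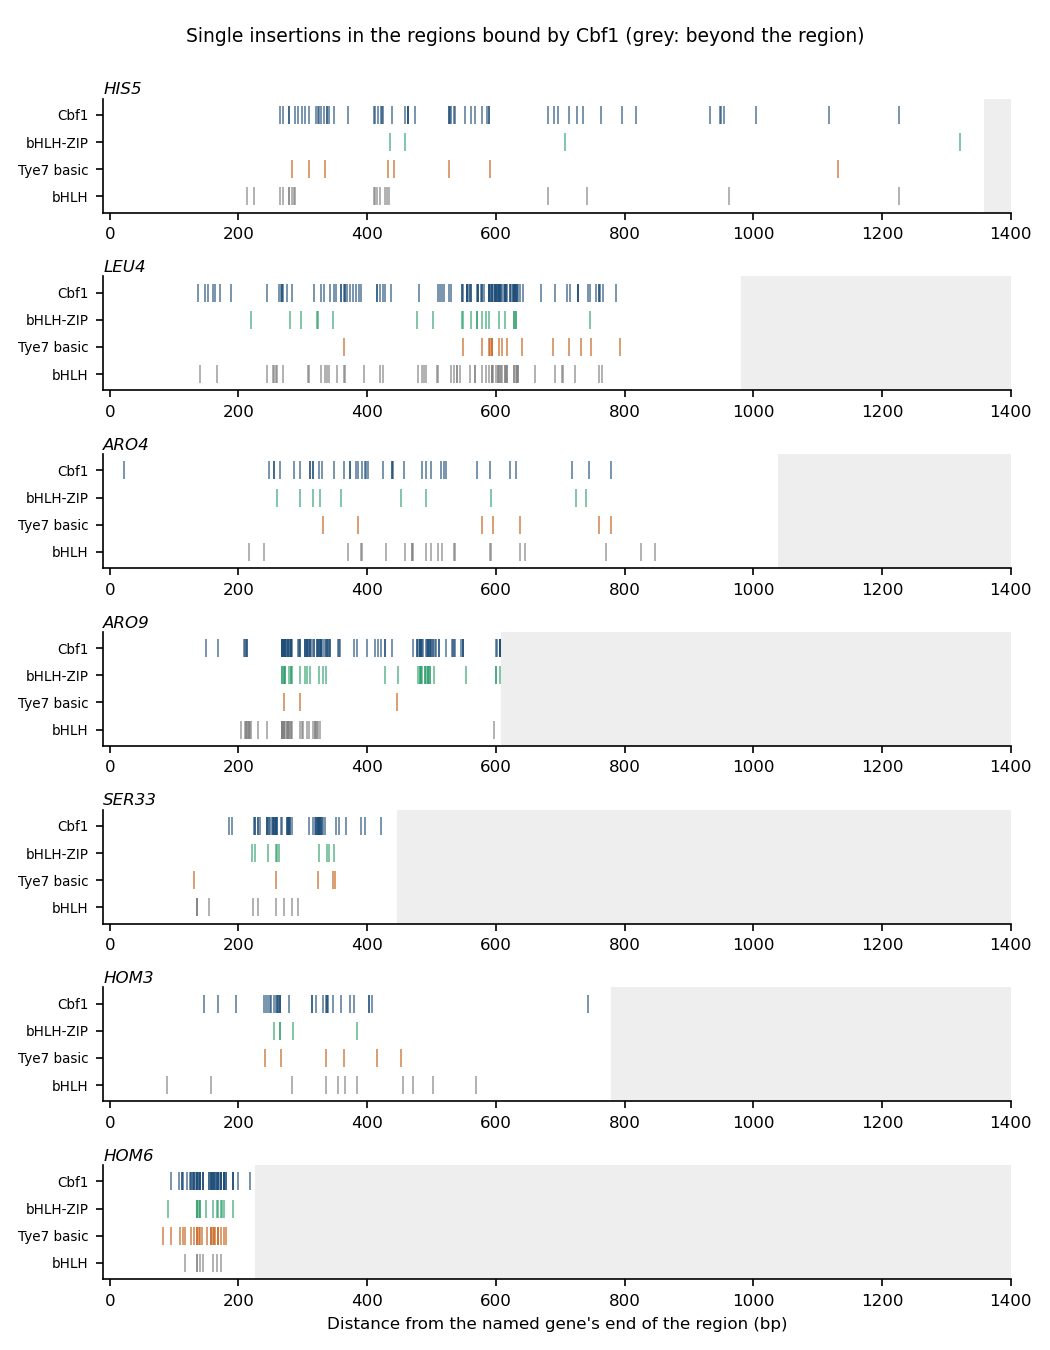
Each tick is an insertion in a region bound by Cbf1, placed by its distance from the end next to the named gene (bp), in 4 forms of Cbf1, with grey beyond the end of the region. In HOM6 the ticks of all 4 forms overlap, with medians of 157, 150 and 144 bp in the 3 bound libraries, and in LEU4 they gather around 590 bp.

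Arginine and glutamine genes had bound regions with other factors. ARG5,6 encodes the acetylglutamate kinase and reductase of arginine synthesis, and MOT2-ARG56 (chromosome 5, 294811 to 295408) held 79 insertions of Cst6, 0.209% and 2.50 times background (1.71 to 3.69; adjusted p 4.06e-13), with 0.141% to 0.268% in its 3 runs. Cbf1 held 7 there, Tye7 14, Gcr1 11, Gcr2 15, Cbf1 bHLH 24 and the other libraries 1 to 8, none of them bound. With positions within 5 bp merged, in the library and not in the background, the ratio of Cst6 was 1.20 and the call was lost. GLN1, of glutamine synthetase, was bound by NPAS2 bHLH with Cbf1 ZIP alone among the 12 libraries: ARP7-GLN1 (chromosome 16, 640955 to 642205) held 18 of its insertions, 0.630% and 7.59 times background (4.19 to 13.1; adjusted p 1.21e-08), and with insertions of at least 5 reads 5.72 times and not bound. Cbf1 itself held 31 insertions there, 1.38 times background (0.856 to 2.18), and NPAS2 bHLH held 5.

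The lysine and proline genes had no bound region. LYS20, of homocitrate synthase, has the longest region of the group (2954 bp) and 110 background insertions. It was among the 3 fullest members in Tye7 (23 insertions), Gcr2 (30), TEF1p-Tye7 (13), TEF1p-Tye7 gcr2D (12) and Cbf1 bHLH (44), yet its ratios in these were 0.866, 0.489, 1.03, 0.952 and 1.03. LYS4, of homoaconitase, likewise led in Gcr2 with 32 insertions at a ratio of 1.21, ARO8 in Gcr1 with 15 at 1.43, and ASN1, of an asparagine synthetase, held 23 in Gcr2 at 0.677. LYS21, the other homocitrate synthase gene, held 5 of the few NPAS2 bHLH insertions, 3.61 times background (1.11 to 9.19; adjusted p 0.506). Among these ratios, the interval of LYS21 alone lay wholly above 1, and its region was not bound.

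How small an excess could be called differed between libraries, and not by depth alone, since the adjusted p also depends on how many regions of a library pass. Over the 48 regions, the median of the smallest callable ratio was 1.95 in Cbf1 and in Cst6, 2.12 in Gcr2, 2.75 in Gcr1, 2.09 in Cbf1 bHLH, 3.46 with the Tye7 basic region, 3.40 in Cbf1 bHLH-ZIP, 3.94 in TEF1p-Tye7 gcr2D, 4.44 in TEF1p-Tye7, 5.55 in Tye7, 6.76 in NPAS2 bHLH with Cbf1 ZIP and 15.8 in NPAS2 bHLH. Smaller excesses than these would not have been called in a typical member region of the library. The median ratio of the 48 regions was 0.349 in Cbf1, against 0.188 over all 4142 regions with background insertions, and 0.666 against 0.628 in Tye7. It was 0.510 against 0.366 in Gcr2 and 0.257 against 0.138 in Cst6, over 4033 regions. Over only the regions upstream of a gene, the medians were 0.230 in Cbf1, 0.690 in Tye7, 0.424 in Gcr2 and 0.178 in Cst6. Against these, the median of the members was lower in Tye7 and higher in Cbf1, Gcr2 and Cst6. Most members therefore held less than their background share in every one of these 4 libraries, as most regions did.

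Summed over the 48 regions, Cbf1 put 2.82% (2.63 to 3.03) of its intergenic insertions upstream of these genes, 1.25 times the 2.25% of its background (1.15 to 1.37). The 7 bound regions held 69.6% of these insertions, and without LEU4-MET4 the ratio was 1.09. The sum was below background in Tye7, at 1.54% and 0.682 times (0.594 to 0.781), in TEF1p-Tye7, at 1.27% and 0.565 times (0.456 to 0.695), in Gcr1, at 1.13% and 0.482 times (0.411 to 0.562), in Gcr2, at 1.40% and 0.599 times (0.531 to 0.674), and in Cst6, at 1.13% and 0.483 times (0.431 to 0.539). It was 2.11% in TEF1p-Tye7 gcr2D (0.935 times, 0.789 to 1.10), 2.02% in Cbf1 bHLH-ZIP (0.895, 0.756 to 1.05), 1.60% for the form with the Tye7 basic region (0.711, 0.584 to 0.860), 2.36% in Cbf1 bHLH (1.04, 0.949 to 1.15), 2.11% in NPAS2 bHLH (0.937, 0.694 to 1.24) and 1.68% in NPAS2 bHLH with Cbf1 ZIP (0.745, 0.547 to 0.993). Among regions not bound in the library, the members' ratio was 0.855 (0.744 to 0.979) in Tye7 and between 0.944 and 1.42 in the other 11.

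**Figure D4:**
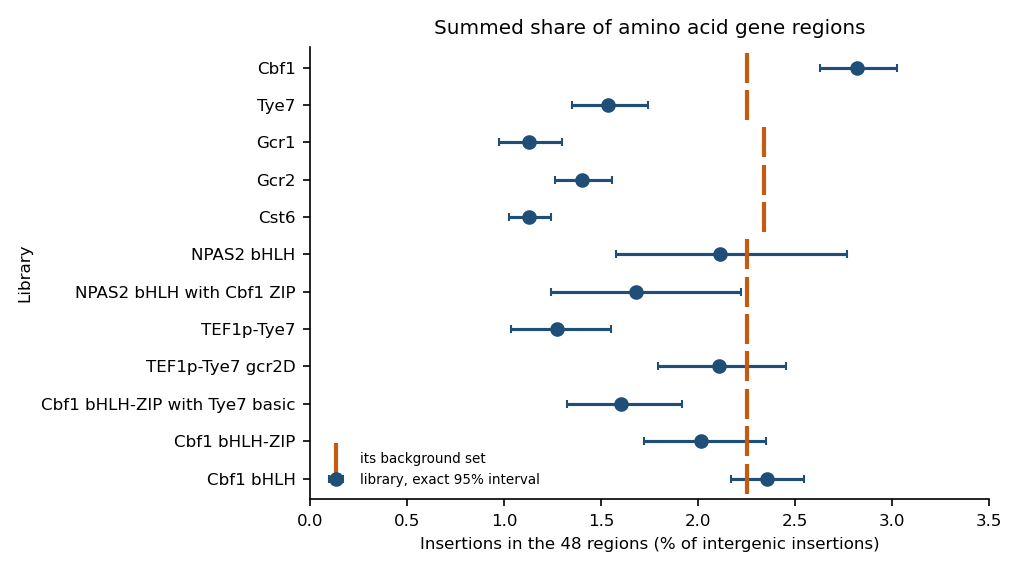
Summed share of the 48 regions in each library (points, % of intergenic insertions, with exact 95% intervals) beside the share in its background set (orange bars). Cbf1 lies above its bar at 2.82%, and Gcr1 and Cst6, both at 1.13%, lie farthest below theirs.

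By pathway, the Cbf1 excess was in 4 groups, and in each most insertions lay in the bound regions named above. SER33 held 67 of 89 serine insertions and HIS5 60 of 85 histidine insertions. HOM6 and HOM3 held 68 and 33 of 109 in their branch, and ARO9 and ARO4 131 and 41 of 194 aromatic insertions. All regions bound by Cbf1 together held 67.8% of its insertions, which lowers the ratios of the other regions. The serine regions together took 0.328% of Cbf1 insertions, 4.53 times background, the threonine and homoserine regions 0.402%, 2.77 times, the aromatic regions 0.715%, 2.25 times, and the histidine regions 0.313%, 1.55 times. The branched chain regions were at 1.15 times and the arginine, glutamine and asparagine, lysine and proline regions at 0.605, 0.501, 0.353 and 0 times background. Beside these, the 18 sulfur and methionine regions took 12.9% of Cbf1 insertions, 18.6 times background, with 14 of 18 bound.

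Tye7 was set against Cbf1 to ask where the libraries of the 2 bHLH factors differ. The strains differed as well, tye7D for Tye7 and cbf1D for Cbf1, so that effects of factor and deletion cannot be told apart. Among the members, 25 held 10 or more insertions over both libraries and could be tested. Of these 7 were lower in Tye7 (28%, against 19.9% of all 759 regions tested) and 4 higher (16%, against 27%), or 11 either way against 46.9%. Calls were made by Fisher's exact test on each region (two-sided), at an adjusted p under 0.05 with at least a 2-fold difference. The 7 lower regions were the 7 bound by Cbf1. Each held fewer than 10 insertions in Tye7 and reached the minimum through Cbf1, so their direction is no result about the members. By this exact test ARO9 was 25.7-fold lower in Tye7 (8.62 to 126; adjusted p 2.25e-21) and LEU4-MET4 13.1-fold (5.85 to 36.2; adjusted p 1.04e-18). HOM6 held 0.0125% of Tye7 and 0.251% of Cbf1 insertions, with an interval of 5.34-fold to 169-fold (adjusted p 1.05e-10). SER33, with 0 against 67 insertions, was at least 13.2-fold lower when 3 insertions are taken as the limit in Tye7, and the exact interval reaches down to 10.4-fold (adjusted p 5.36e-13). HIS5 was 5.05-fold, ARO4 4.03-fold and HOM3 3.89-fold lower (adjusted p 1.09e-05, 0.00169 and 0.00696). The calls of HOM6 and HOM3 were lost when positions within 5 bp were merged (adjusted p 0.193 and 0.105), and those of HOM3 and ARO4 with insertions of at least 5 reads (0.436 and 0.0718).

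The 4 regions called higher in Tye7 were bound in neither library. ARG5,6 and ARG1 reached the minimum of 10 insertions through Tye7 alone. LYS20 held 23 against 15 insertions, a ratio of 2.60 (1.30 to 5.36; adjusted p 0.0116), ARG5,6 14 against 7 (3.39, 1.28 to 9.93; adjusted p 0.0180), ILV5 15 against 10 (2.54, 1.07 to 6.33; adjusted p 0.0475) and ARG1, of argininosuccinate synthetase, 11 against 6 (3.11, 1.05 to 10.2; adjusted p 0.0495). Their ratios to background in Tye7 were 0.866 for LYS20, 0.920 for ARG5,6, 0.661 for ILV5 and 1.98 for ARG1 (0.872 to 4.23; Poisson, adjusted p 0.418). Each call was lost in at least 1 fit without a run: LYS20 without run 1 of Cbf1 (adjusted p 0.110), ARG5,6 without that run or run 1 or 6 of Tye7 (0.0519 to 0.118), and ILV5 and ARG1 in 7 and 6 such fits (0.0606 to 0.210). When shares were rescaled on the regions that neither library bound, which lowers the log2 ratios by 1.17, 0 members were higher and 10 lower.

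**Figure D5:**
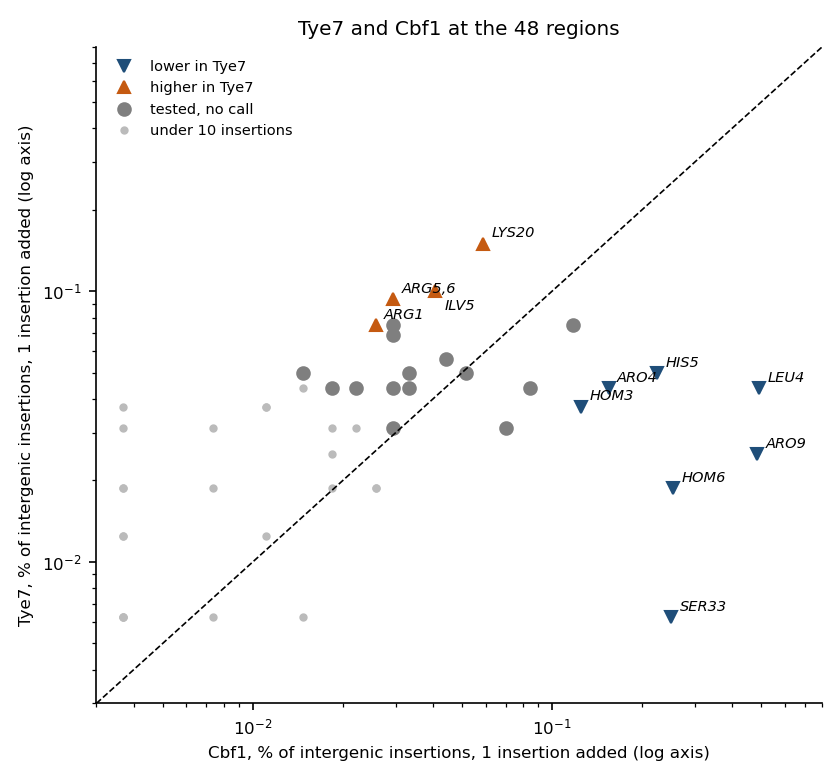
Share of intergenic insertions of Tye7 against that of Cbf1 for the 48 regions, both on log axes with 1 insertion added, with equality as the dashed line. Triangles pointing down are the 7 regions called lower in Tye7, SER33 lowest of them, and triangles pointing up the 4 called higher, which were not called after scaling on regions bound in neither library.

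Shortening Cbf1 to its bHLH-ZIP part lowered 1 of 15 tested members and raised 0, where 1.64% of all 428 regions were lower and 1.4% higher. The member was HIS5, with 4 against 60 insertions, 4.44-fold lower (1.65 to 16.8; adjusted p 0.0234 by the exact test). HIS5 reached the minimum number of insertions through Cbf1 alone, so its direction is no result about the member. The call was lost under each of the 5 alternatives other than leaving out a run, with adjusted p from 0.0548 to 0.517, and without either run of Cbf1 bHLH-ZIP (0.229 and 0.300) or run 3 of Cbf1 (0.0650). ARO9 held 0.473% in the shortened form and 0.483% in full-length Cbf1.

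Removing the zipper, in Cbf1 bHLH against Cbf1 bHLH-ZIP, lowered 2 of 25 tested members (8%, against 7.06% of all 807 regions) and raised 1 (4%, against 8.67%). By the exact test ARO9 was 2.83-fold lower (1.78 to 4.48; adjusted p 0.000107) and HOM6 6.0-fold (2.39 to 16.3; adjusted p 0.000548), while LEU4-MET4 was not called, at 0.261% and 0.286%. HOM6 held 8 against 15 insertions and reached the minimum through Cbf1 bHLH-ZIP alone, so its direction is no result about the member. ARO9, with 43 against 38 insertions, reached the minimum in each of these libraries. The call of ARO9 was lost without run 3 of Cbf1 bHLH (adjusted p 0.111), and that of HOM6 without the same run (0.0649), without run 1 of Cbf1 bHLH-ZIP (0.350) or with insertions of at least 5 reads (0.213). Run 3 of Cbf1 bHLH held 20443 of its 25688 intergenic insertions, so leaving it out also removes most of the depth. LYS20 was higher by the exact test, with 44 against 3 insertions and a ratio of 4.58 (1.47 to 23.1; adjusted p 0.0250). LYS20 reached the minimum through Cbf1 bHLH alone, so its direction is no result about the member. Its call was lost under all 5 alternatives other than leaving out a run. It was also lost without run 1 of Cbf1 bHLH (adjusted p 0.0650) and without either run of Cbf1 bHLH-ZIP (0.109 and 0.390). Rescaling on the regions that neither library bound lowers the log2 ratios by 1.52 here and gave 8 lower and 0 higher members.

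Replacing the basic region of Cbf1 bHLH-ZIP by that of Tye7 lowered 1 of 10 tested members (10.0%, against 13.1% of all 214 regions) and raised 0 (8.88% of all regions). ARO9 held 3 against 38 insertions, 11.4-fold lower (3.62 to 57.8; adjusted p 5.11e-07 by the exact test), while HOM6 held 0.318% and 0.187% and was not called. ARO9 reached the minimum of 10 insertions through Cbf1 bHLH-ZIP, so its direction is no result about the member. With positions within 5 bp merged the ARO9 call was lost (adjusted p 0.124). The strain differed in this pair as well, BY4742 against BY4741, so that effects of basic region and strain cannot be told apart.

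For the Cbf1 zipper added to NPAS2 bHLH, 2 members could be tested and 46 held too few insertions. Both reached the minimum of 10 through their insertions in the library with the zipper, so their direction is no result about the members, and of all 62 regions tested 59.7% were higher and 4.84% lower (64.5% either way). LEU4-MET4 held 15 against 2 insertions, 6.34-fold (1.47 to 57.1; adjusted p 0.0109 by the exact test), and GLN1 18 against 5, 3.04-fold (1.09 to 10.5; adjusted p 0.0345). Both calls were lost without the minimum of 10 insertions (adjusted p 0.209 and 0.427). A test of equal odds ratios asked whether the zipper changed a region alike in NPAS2 and in Cbf1: for LEU4-MET4 the exact p was 0.0250 (adjusted over 59 regions 0.0591), and for GLN1 0.377 (adjusted 0.538), while 22 of the 59 regions (37.3%) passed an adjusted p of 0.05.

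Neither Tye7 pair called a member. For TEF1p-Tye7 against Tye7, 10 members were tested with 0 higher and 0 lower, where 1.97% and 0.656% of 457 regions were called by Fisher's exact test, and their median log2 ratio was 0.25 against -0.29 over all regions. TYE7 was deleted in the strain of Tye7 only, so that effects of promoter and deletion cannot be told apart in this pair. For TEF1p-Tye7 gcr2D against TEF1p-Tye7, 8 were tested with 0 calls, where 11.9% and 5.93% of 270 regions were called, and the median log2 ratio was 0.26 against 0.59.

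Among 24 regions of other amino acid synthesis genes, outside the 48, some were bound. Cbf1 bound 2 of the 24, where it bound 3.91% of all regions. Cbf1 bound GDH1 and GLY1 among them, Cbf1 bHLH-ZIP GLY1, Cbf1 bHLH GDH1, TEF1p-Tye7 gcr2D IDP1, and Cst6 GDH3 and GLY1. GDH3, of a glutamate dehydrogenase, held 229 Cst6 insertions, 6.79 times background. GLY1, of threonine aldolase, which makes glycine from threonine, held 85 Cbf1 and 107 Cst6 insertions, 2.73 and 2.01 times background. In the pair of Tye7 and Cbf1, 1 of 6 tested regions of this list was higher and 2 lower, where 27% and 19.9% of all 759 tested regions were.

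Among 17 regions upstream of regulators of amino acid synthesis or use, 5 were bound in some library. Of all regions 10.0% were bound in some library, and of those upstream of a gene 12.4%. PUT3, of the activator of proline use, shares ATP7-PUT3 with a subunit gene of ATP synthase, and the region held 461 Cbf1 insertions (1.70%), 177 of Cbf1 bHLH-ZIP (2.20%), 331 of the form with the Tye7 basic region (4.58%) and 115 of Cbf1 bHLH (0.448%), all bound, where the background held 0.0106%. GAT1, of a nitrogen-responsive activator, was bound in Gcr1, Gcr2, Cst6 and NPAS2 bHLH with Cbf1 ZIP at 3.93, 4.61, 3.10 and 6.84 times background. GCN4, of the general activator named above, was bound in Gcr2 with 115 insertions, 2.30 times background, MCM1 in Gcr2 at 1.73 times, and RTG1, of the retrograde activator, in Cst6 with 96 insertions, 27.3 times. In the pair of Tye7 and Cbf1, 5 of these regions were tested, with GCN4 higher and PUT3 lower in Tye7. Of all 759 tested regions 27% were higher and 19.9% lower.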

How the data were processed

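Calling cards were mapped in 12 libraries, 1 per group. The authors deposited, per library, an insertion list with read counts and a table that gives, for 4532 intergenic regions, counts of insertions for the library and for a background set, fractions of all insertions, and Poisson and hypergeometric p-values. Novoalign is the aligner per the submitters' processing notes (genome build: not given in the sources used here). Insertions counted again from the lists equalled the deposited counts. The deposited Poisson p-values are the chance of more insertions than seen, with the background scaled by all insertions and 0.2 added. They were recomputed so that small values keep their digits. Symbols came from R64, used for names and neighbours only (4656 of 4657 identifiers matched). A region counts as upstream of its left gene if that is on the Crick strand and of its right gene if on the Watson strand.

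Shares are percentages of intergenic insertions unless stated otherwise. Adjustment was by Benjamini-Hochberg over all regions of a library (bound: under 0.01 and at least 5 insertions) or all regions with at least 10 insertions in a pair (called: under 0.05 and a ratio of at least 2 after adding 1 insertion). Intervals are exact at 95%, Clopper-Pearson for shares and conditional on both counts for ratios, and insertions found by PCR may not be independent. The difference of differences used Zelen's exact test. Both tests were tested on simulated data. Runs are sorted blocks of an insertion list and served only to leave parts out. Merging within 5 bp and the minimum of 5 reads were applied to the libraries and not to their background sets. Python 3.11.15, NumPy 2.4.6, pandas 2.3.3, SciPy 1.17.1 and Matplotlib 3.10.9 were used. The members, gene lists and tests were chosen with earlier results of these data known. Named regions are those bound in a library, called in 1 of 7 pairs, or among the 3 fullest of a library with at least 5 insertions. A few others, such as SER1, HIS1 and HOM2, were named after their values were seen. Among bound regions outside the 48, 1 is not reported here.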

Additional observations from a re-analysis of the deposited data

Results flagged for a closer look

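The deposited counts of regions widened by 200 bp on each side, which the comparisons above do not use, held a signal at 2 members whose own regions were not bound. Ratios of widened regions compare shares of all insertions and not of intergenic insertions, so they are not on the scale of the ratios above. LYS9, of saccharopine reductase in lysine synthesis, had 18 Cst6 insertions in LYS9-BRE5 and 140 after widening, 8.66 times background (5.63 to 13.8; Poisson, adjusted p 7.29e-78). The 122 additional insertions all lay beyond the LYS9 end of the region, were found in every run (31 to 57 each), and none of the other 11 libraries had an insertion there, while the background gained 1. HIS4, which encodes a multifunctional enzyme of histidine synthesis, had 1 insertion of TEF1p-Tye7 in HIS4-BIK1 and 24 after widening, 7.51 times background (4.18 to 13.4; adjusted p 1.06e-11), and 0 and 34 in TEF1p-Tye7 gcr2D, 9.92 times (5.86 to 16.9; adjusted p 6.33e-20). All 23 and 34 additional insertions lay beyond the BIK1 end, away from HIS4, in every run of both libraries. Tye7 had 12 there, 1.79 times background (0.833 to 3.62), Gcr2 20 of its 21, 1.40 times (0.781 to 2.45), and the 4 Cbf1 forms 2 to 8. Widened counts reach into the neighbouring genes, and which gene they concern was not tested.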

How the results depend on the processing

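No paired analysis was possible because each group has 1 library. Bound members: the count of Cbf1 ran from 6 to 8 over all alternatives. NPAS2 bHLH with Cbf1 ZIP had 0 with insertions of at least 5 reads, TEF1p-Tye7 and TEF1p-Tye7 gcr2D 1 each (HIS4) with widened regions, and Cbf1 bHLH 0 with positions within 5 bp merged. Without single runs the range was 1 to 2 for Cst6 and for Cbf1 bHLH, 0 to 1 with the Tye7 basic region and 2 to 2 for Cbf1 bHLH-ZIP.

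Called members, higher: Tye7 against Cbf1 gave 1 without the minimum of 10 insertions, 0 scaled on unbound regions or merged, 2 scaled outside the 10 fullest regions or with at least 5 reads, and 1 to 5 without single runs. Cbf1 bHLH against Cbf1 bHLH-ZIP gave 0 under all 5 and 0 to 1 without runs. The Tye7 basic region gave 1 with at least 5 reads and 0 to 1 without runs, NPAS2 0 without the minimum and 0 with at least 5 reads, and TEF1p-Tye7 gcr2D 0 to 1 without runs. Lower: Cbf1 bHLH-ZIP against Cbf1 gave 0 under all 5 and 0 to 1 without runs. Cbf1 bHLH against Cbf1 bHLH-ZIP gave 8 on unbound regions, 4 merged, 1 with at least 5 reads and 0 to 2 without runs. The Tye7 basic region gave 2 on unbound regions and 0 merged.

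Summed ratios to background: as shares of all insertions they were 1.53 for Cbf1, 0.716 for Gcr2, 0.866 with the Tye7 basic region, 1.09 for Cbf1 bHLH-ZIP and 1.20 for Cbf1 bHLH. Merging of the library, against its unmerged background, gave 0.830 for Tye7, 0.867 for Gcr1, 0.907 for Gcr2, 0.898 for Cst6, 1.38 for NPAS2 bHLH with Cbf1 ZIP, 0.939 for TEF1p-Tye7, 1.08 with the Tye7 basic region, 1.45 for Cbf1 bHLH-ZIP and 0.901 for Cbf1 bHLH. Regions upstream of 1 gene alone gave 0.804 for Tye7, 0.581 for Cst6, 1.47 for NPAS2 bHLH, 0.890 with the Tye7 basic region and 0.948 for Cbf1 bHLH. Without the fullest member they were 1.09 for Cbf1, 0.408 for Cst6, 0.483 for NPAS2 bHLH with Cbf1 ZIP, 0.575 with the Tye7 basic region and 0.692 for Cbf1 bHLH-ZIP. At least 5 reads gave 0.527 for Gcr2 and 0.426 for Cst6. Without single runs they ran from 0.461 to 0.642 for Gcr2, 0.404 to 0.512 for Cst6 and 1.02 to 1.19 for Cbf1 bHLH. The causes were not tested. Counting the chance of at least as many insertions, chosen after seeing the data, left the bound members as they were in each of the 12 libraries. No sign of a called ratio reversed.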

Other observations

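Several regions stood at 2 or more times background with at least 5 insertions and were not bound. ARG4 held 5 insertions of TEF1p-Tye7 gcr2D, 5.46 times background (1.40 to 18.9; adjusted p 0.0805), ARO1 5 of Tye7, 2.96 times (0.740 to 10.8; adjusted p 0.418), HIS2 9 of Gcr1, 2.24 times (0.844 to 5.65; adjusted p 0.313), ARG8 7 of Cbf1 bHLH, 2.58 times (0.772 to 8.62; adjusted p 0.0977), and SER1 9 of Cbf1 bHLH-ZIP, 2.48 times (1.03 to 5.35; adjusted p 0.0700). These values were picked after the data were seen, and each rests on fewer than 10 insertions.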
